A study of Mus musculus with 8 samples.

Results

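Acute experimental autoimmune encephalomyelitis (EAE), the immune-driven mouse model of multiple sclerosis, was compared with the naive state in wild-type (WT) C57Bl/6J mice. The WT EAE profile rested on 1 array and so did the WT naive profile, and both lay on the same slide of the 8 arrays of the study. RNA whose source was labelled astrocyte and whose tissue was labelled spinal cord was hybridised in a single colour. The genes described were those with at least 1 probe well above background on 1 or both of these arrays, 22597 of the 36993 genes with a probe. The WT mice carry FL in their sample titles, and the titles of these arrays name no iguratimod. A pair of arrays of connexin 47 (Cx47) deficient mice, titled icKO, 1 from EAE and 1 naive, served as a second pair that shares no array with the WT pair. The series title calls this an oligodendroglia-specific conditional knockout. The remaining 4 arrays were of EAE with iguratimod and of chronic EAE. Ages, the driver of the knockout, the number of animals behind an array and the way the cells were isolated were not given in the sources used here.

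In EAE, T cells and monocytes enter the central nervous system, and their cytokines, chiefly interferon gamma, tumour necrosis factor and interleukin 1, act on glial cells. Interferons signal through JAK kinases and STAT transcription factors to genes that carry interferon response elements, among them the MHC genes, immune GTPases and the chemokine Cxcl10. Astrocytes answer such signals by raising Gfap and Vim, by secreting Lcn2 and chemokines, and by altering complement output. Oligodendrocytes, which make myelin, are the cells injured in this disease.

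Levels are given as scaled intensity, the background-subtracted spot signal divided by the array's own 75th percentile and multiplied by 100. Such levels compare a probe between arrays and not 1 gene with another. A difference is the log2 of WT EAE minus WT naive. With 1 array on each side no test is possible, so 2-fold is a rule of size only and the spread between mice is unknown. Repeated spots of a probe had a median SD of 0.05 on the log2 scale on either array, over 300 probes, and different probes of a gene gave differences with a median SD of 0.13 over 7211 genes. The arrays had 59.9% and 59.7% of spots well above background in WT EAE and WT naive, 75th percentiles of 614 and 544 in signal, and no saturated gene. A value not well above background was raised to the array's floor where it lay under that floor, and was otherwise left as measured. The floor was a scaled intensity of 2.61 on the WT EAE array and 2.98 on the WT naive array. Folds against any value not well above background are written as at least N-fold. The brightest probes still not well above background were at 3.54 on the WT EAE array and 3.85 on the WT naive array.

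The labelled cell type was checked against its markers. All 14 astrocyte identity genes were well above background on both arrays, among them Aldh1l1, a folate enzyme used as a pan-astrocyte marker, at 1033 in WT EAE and 1015 in WT naive. All 15 pan-neuronal genes, all 18 myelin genes and all 12 homeostatic microglia genes were well above background on both arrays as well. Neuronal Snap25, a synaptic vesicle fusion protein, stood at 6207 in WT EAE and 6234 in WT naive. The arrays therefore measured RNA that included transcripts of neurons, oligodendrocytes and microglia, and in such a mixture fewer cells of a type and less RNA per cell cannot be told apart.

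Disease was accompanied by more and larger increases than decreases. Of the 22597 genes, 763 were higher by 2-fold or more in WT EAE, which is 3.38%, and 439 were lower, which is 1.94%. At 4-fold there were 248 higher and 35 lower, and at 16-fold 29 higher and 0 lower. Most genes moved little: 87.4% lay within 1.5-fold, the median difference was -0.04 and the SD of the differences 0.53. After normexp background correction, which damps dim probes, 356 genes were higher and 89 lower. The higher genes had a median level of 33.3 in WT EAE and 8.54 in WT naive. The lower genes had a median level of 3.23 in WT EAE and 9.04 in WT naive. On the same slide their median was 16.1 in Cx47-deficient EAE and 21.9 in Cx47-deficient naive. With iguratimod their median was 10.6 in WT EAE and 5.70 in Cx47-deficient EAE, the latter also below WT naive. For 84.5% of them WT EAE was the lowest of the 6 arrays of the slide, against 18.1% of kept genes. WT naive was the highest for 15.7% of them, against 20.8% of kept genes. The lower genes were picked for a low WT EAE value, and what set that array apart was not tested. On the WT naive array 201 of the higher genes were not well above background, and on the WT EAE array 207 of the lower genes were not. At the edge of the rule C1qtnf7, at 1.00, was counted as higher and Gm4200, also 1.00 after rounding, was not.

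**Figure D1:**
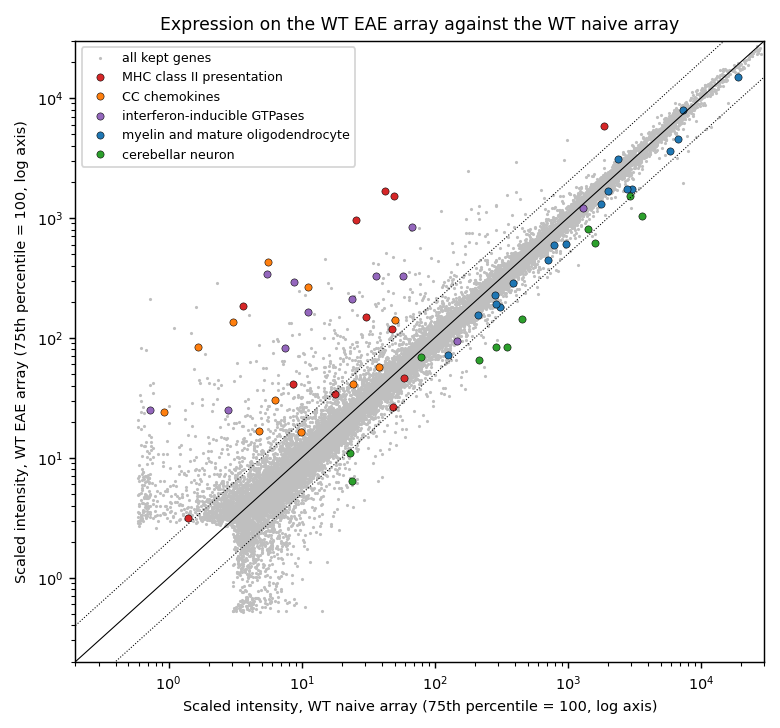
Scaled intensity of every kept gene on the WT EAE array (vertical, log axis) against the WT naive array (horizontal, log axis), with 5 gene lists in colour, the solid line at equal levels and the dotted lines at 2-fold. Most MHC class II genes (8 of 12) and CC chemokines (8 of 11) lie above the upper 2-fold line. Myelin genes lie mostly just below equality, and cerebellar genes mostly under the lower 2-fold line.

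The largest increases included chemokine, interferon-induced and antigen presentation genes, and also S100a5, Ms4a15, Plac8, Plbd1 and Saa3, which are in no list of these kinds. The T cell attractant Cxcl10 (probe at chr5:92775781-92775840 in mm9) had a scaled intensity of 286 in WT EAE and 2.33, not well above background, in WT naive, at least 96.2-fold higher. Ccl5, a chemokine for T cells and monocytes (chr11:83339296-83339355), was at 431 in WT EAE and 5.62 in WT naive, 76.7-fold higher. The immunity-related GTPase Iigp1 was at 339 in WT EAE and 5.47 in WT naive, 61.9-fold higher, although its other probe gave a difference of 1.80 only. These genes also lay far apart on the Cx47-deficient arrays. Cxcl10 was at 459 in Cx47-deficient EAE and 3.93 in Cx47-deficient naive, Ccl5 at 1044 and 6.98, and Iigp1 at 580 and 4.69 on the same arrays.

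The rule for the 15 largest increases also named H2-Aa, H2-Ab1, H2-Eb1 and Cd74 of the MHC class II pathway, Ccl2, Gbp2, Tgtp2, Plac8, Plbd1, Saa3, Ms4a15 and S100a5. Saa3, an acute-phase protein, was at 110 in WT EAE and 1.49, not well above background, in WT naive, at least 37.0-fold higher. Plbd1, a phospholipase-like protein, was at 154 in WT EAE and 4.03 in WT naive, 38.3-fold higher. Ms4a15, a membrane protein of the MS4A family, was at 182 in WT EAE and 1.601, not well above background, in WT naive, at least 61.1-fold higher, and both its probes were higher. S100a5, a calcium-binding protein known from olfactory sensory neurons, was at 213 in WT EAE and 0.72, not well above background, in WT naive, at least 71.4-fold higher. Tgtp2 (chr11:48871837-48871896), an interferon-inducible GTPase, was at 451 in WT EAE and 15.01 in WT naive, 30.1-fold higher. It has a near-identical copy, Tgtp1, whose signal a probe may share.

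Of the 15 genes, 10 had a promoter in the table read here and lay on a chromosome whose sequence is printed. The promoters of 4 of them are shown because they hold letters of the interferon element within 250 bases before and 50 after the RefSeq start (GRCm38.p6, coding strand, 5′ to 3′). Capitals mark the letters matched to an interferon, STAT-type or NF-kB element. H2-Aa held 2 overlapping NF-kB matches and no interferon element match, and is not shown. Cxcl10 (chr5:92348840-92349139, minus strand) holds 1 match to the interferon element and 2 to NF-kB. Saa3 (chr7:46715627-46715926, minus strand) and Gbp2 (chr3:142620413-142620712, plus strand) hold 1 interferon element match each, and Tgtp2 (chr11:49064163-49064462, minus strand) holds a STAT-type match followed by an interferon element match.
Cxcl10: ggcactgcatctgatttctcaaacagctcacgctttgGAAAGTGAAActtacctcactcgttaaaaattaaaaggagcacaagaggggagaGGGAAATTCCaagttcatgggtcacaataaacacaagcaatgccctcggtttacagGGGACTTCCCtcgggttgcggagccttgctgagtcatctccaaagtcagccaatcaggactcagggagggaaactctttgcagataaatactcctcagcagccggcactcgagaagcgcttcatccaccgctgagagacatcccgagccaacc
Saa3: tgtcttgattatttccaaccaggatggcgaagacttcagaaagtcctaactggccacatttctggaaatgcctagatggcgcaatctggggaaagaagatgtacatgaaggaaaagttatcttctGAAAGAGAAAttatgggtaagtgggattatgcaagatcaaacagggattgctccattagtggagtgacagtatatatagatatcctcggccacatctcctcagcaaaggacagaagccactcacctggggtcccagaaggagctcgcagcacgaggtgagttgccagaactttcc
Gbp2: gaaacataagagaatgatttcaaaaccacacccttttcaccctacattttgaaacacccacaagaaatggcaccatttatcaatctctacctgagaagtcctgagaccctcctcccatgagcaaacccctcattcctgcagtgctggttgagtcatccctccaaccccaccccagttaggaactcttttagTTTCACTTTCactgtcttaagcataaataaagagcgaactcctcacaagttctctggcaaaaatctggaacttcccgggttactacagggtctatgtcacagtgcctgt
Tgtp2: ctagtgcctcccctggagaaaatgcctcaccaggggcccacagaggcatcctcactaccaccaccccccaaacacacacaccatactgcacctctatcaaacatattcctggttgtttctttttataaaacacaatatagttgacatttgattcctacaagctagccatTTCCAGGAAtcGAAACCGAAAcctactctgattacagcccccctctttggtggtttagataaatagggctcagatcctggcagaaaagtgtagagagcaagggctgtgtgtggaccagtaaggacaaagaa

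Matches were counted on both strands in 13519 kept genes with a promoter in the table. The interferon element was searched as GAAA, any 2 bases and GAAA again. It occurred in 14.1% of the 519 genes higher by 2-fold or more and in 21.6% of the 167 higher by 4-fold or more. It occurred in 1.82% of the 165 lower genes, in 3.75% of kept genes and in 3.44% of all 32851 windows of this length. A gene counted when any of its windows matched, whereas windows were counted singly, so these 2 kinds of share are unlike. The STAT-type letters, TTCNNNGAA, occurred in 11.8% of the higher genes, 9.70% of the lower, 8.40% of kept genes and 8.30% of windows. The NF-kB consensus occurred in 10.02% of the higher genes, 6.06% of the lower, 6.18% of kept genes and 4.51% of windows. Counted by gene over all 27025 genes with a promoter, the interferon element occurred in 3.99%, the STAT-type letters in 9.55% and the NF-kB consensus in 5.14%. Interferon element letters stood in 7 of 8 promoters of the interferon-inducible GTPases and in 8 of 14 of the antiviral genes. They stood in 4 of 12 promoters of MHC class I genes, 2 of 7 of CXC chemokines, 1 of 7 of CC chemokines, 1 of 7 of MHC class II genes and 1 of 10 of complement genes. These are matches of letters and not measured binding sites.

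Genes fixed in lists by function and cell type show where the increases lay. Over all kept genes the median difference was -0.04, and the background shares are 3.38% higher and 1.94% lower.

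Chemokines were among the most raised lists. Of 11 CC chemokines measured, 8 were higher by 2-fold and none lower, with a median difference of 2.27 and a summed scaled intensity of 1241 in WT EAE and 156 in WT naive. Ccl2, the main monocyte attractant, was at 136 in WT EAE and 3.08 in WT naive, 44.1-fold higher. Ccl12, its mouse relative, was at 263 in WT EAE and 11.1 in WT naive, and Ccl8, a further ligand of this group, at 84.6 and 1.68, the last not well above background. Of 10 CXC chemokines, 7 were higher, with a median of 1.55, which was 0.44 under normexp and 0.71 over members well above background on both arrays. The CC median was 1.29 under normexp. Cxcl9, induced by interferon gamma and sharing the receptor Cxcr3 with Cxcl10, was at 82.2 in WT EAE and 0.62, not well above background, in WT naive, at least 27.6-fold higher. Cxcl16, which attracts Cxcr6-bearing T cells, was at 36.8 in WT EAE and 4.65 in WT naive, and Cxcl12 at 521 and 138, although the other Cxcl12 probe gave only 0.26. The probe named Cxcl11 was very bright on both arrays, 15891 in WT EAE and 16458 in WT naive. Of 10 chemokine receptors 4 were higher, with a median of 0.75: Cxcr6 (at least 9.40-fold), Ccr7 (4.99-fold), Cxcr3 (at least 4.51-fold) and the monocyte receptor Ccr2 (at least 3.15-fold). Under normexp Ccr7, Cxcr3 and Ccr2 were short of 2-fold, at 0.87, 0.76 and 0.54.

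Cytokine transcripts were sparse by comparison. Of 18 cytokines 11 were measured and 4 were higher, with a median of 0.64: Il1b, at 34.8 in WT EAE and 0.76 in WT naive, its natural antagonist Il1rn, at 17.4 and 0.62, the gp130 cytokine Osm, at 8.13 and 1.62, and Ifng, at 6.74 and 0.59. All 4 were not well above background on the WT naive array, so their folds are at least 11.7, 5.84, 2.73 and 2.27, and under normexp Osm and Ifng were at 0.45 and 0.34. Tnf was at 22.2 in WT EAE and 16.3 in WT naive, a difference of 0.44. Neither of the 2 Il6 probes was well above background in WT EAE or WT naive. Il10, Il12b, Il17a, Il23a, Lif and Csf2 were likewise not kept.

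**Figure D2:**
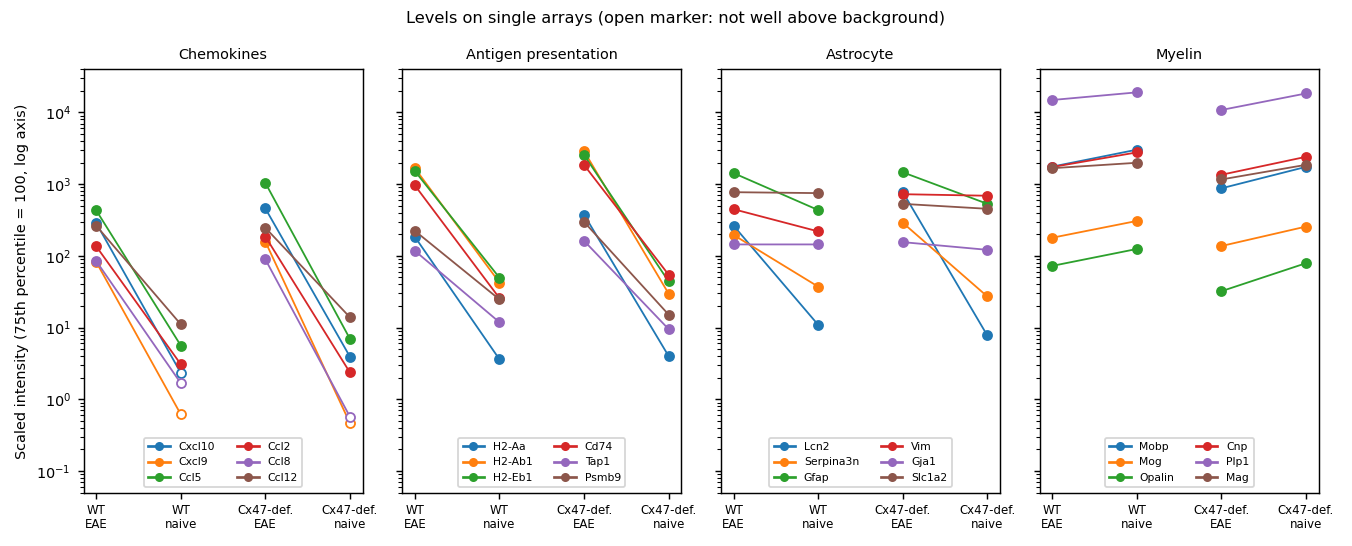
Scaled intensity (log axis) of 24 genes on the WT EAE, WT naive, Cx47-deficient EAE and Cx47-deficient naive arrays, 1 point per array with a line joining each pair and open markers where a probe was not well above background. Chemokine and antigen presentation genes stand far higher on both EAE arrays, Gja1 and Slc1a2 stay level, and the myelin genes shown are lower.

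Interferon targets were raised broadly. Of 12 interferon-inducible GTPases, which attack vacuoles of intracellular microbes, 10 were higher and none lower, with a median of 3.17. Gbp2, a guanylate-binding protein, was at 294 in WT EAE and 8.76 in WT naive, 33.6-fold higher, Ifi47 at 163 and 11.2, and Igtp at 835 and 67.6. Gbp5 and Gbp9 did not follow, with differences of -0.64 and -0.13. Guanylate-binding genes are close paralogs and some probes may read more than 1 of them. Of 21 antiviral interferon-stimulated genes 19 were higher, with a median of 2.32, the nucleic acid sensor Zbp1 by 14.1-fold, the RNA sensor Oas1a by 12.7-fold, the transcription factor Irf7 by 11.0-fold and Oasl1 by at least 13.7-fold. Dhx58 (0.91) and Eif2ak2 (0.83) were short of 2-fold, and the list median was 1.43 under normexp.

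The signalling genes upstream moved less evenly. Of 15 interferon and STAT genes 6 were higher, with a median of 0.58. Irf1, a transcription factor induced by interferon gamma, was at 314 in WT EAE and 55.7 in WT naive, and Socs3, a feedback inhibitor of STAT3, at 119 and 21.8. Irf8, Irf9 and Socs1 were also past 2-fold. The kinases Jak1 and Tyk2 differed by 0.01 and 0.19, and the receptor chain Ifnar1 by -0.76 with its brightest probe and by up to 0.37 with another. Of 12 NF-kB genes 3 were higher, Bcl3 by 8.95-fold, Tnfaip2 by 4.45-fold and Nfkb2 by 2.31-fold, with a list median of 0.43. Under normexp Tnfaip2 and Nfkb2 were at 0.99 and 0.71. Of 12 Toll-like receptor genes 4 were higher, with a median of 0.44: Tlr2, at 82.6 in WT EAE and 18.1 in WT naive, Tlr1 (at least 2.96-fold), Tlr6 (at least 2.64-fold) and the co-receptor Cd14 (2.30-fold). Under normexp Tlr1, Tlr6 and Cd14 were at 0.51, 0.45 and 0.98.

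Antigen presentation genes of both classes were higher. Of 12 MHC class II genes 8 were higher and none lower, with a median of 1.97. H2-Ab1, the beta chain that presents peptide to CD4 T cells, was at 1663 in WT EAE and 42.5 in WT naive, 39.2-fold higher, and its 4 probes gave between 5.01 and 5.29. The alpha chain H2-Aa was at 184 in WT EAE and 3.60 in WT naive, 51.0-fold higher, and the invariant chain Cd74 at 959 and 25.7, 37.3-fold higher. Their master regulator Ciita differed by -0.34 with its brightest probe and by 2.64 with another, and the co-stimulators Cd80 and Cd40 by -0.86 and 0.08. Of 14 MHC class I and immunoproteasome genes 10 were higher, with a median of 2.12. The class I heavy chain H2-K1 was at 2949 in WT EAE and 411 in WT naive, the peptide transporter Tap1 at 118 and 11.8, and the proteasome subunit Psmb9 at 223 and 24.7. Nlrc5, the transactivator of class I genes, was at 41.8 in WT EAE and 2.003, not well above background, in WT naive.

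Complement genes of several arms were higher, 10 of 16, with a median of 1.45, which was 0.91 under normexp. Cfb of the alternative pathway was at 78.6 in WT EAE and 0.67, not well above background, in WT naive, at least 26.4-fold higher. The central component C3 was at 506 in WT EAE and 43.2 in WT naive, 11.7-fold higher, and C4b at 1133 and 112, 10.1-fold higher. The microglial C1q chain C1qa was at 1061 in WT EAE and 379 in WT naive, 2.80-fold higher. The protective surface proteins Cd55 and Cd59a differed by 0.03 and 0.06.

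Reactive astrocyte genes were higher while genes of astrocyte function were level. Of 12 pan-reactive genes 8 were higher, with a median of 1.52, and the list holds Cxcl10 of the CXC chemokines above. Lcn2, a secreted iron-carrier-binding protein, was at 263 in WT EAE and 10.9 in WT naive, 24.1-fold higher, and both its probes were higher. The protease inhibitors Timp1 and Serpina3n were at 149 and 196 in WT EAE and at 19.2 and 37.2 in WT naive. Osmr, the oncostatin M receptor, was at 41.7 in WT EAE and 8.98 in WT naive, while its other probe gave -2.003. The intermediate filament Gfap was at 1427 in WT EAE and 436 in WT naive, 3.27-fold higher, with probes at 1.40 and 1.71, and Vim at 448 and 220, 2.04-fold higher. Of 11 genes of the neurotoxic A1 set 7 were higher, with a median of 2.11, but the list holds Iigp1, Gbp2, Psmb8, H2-D1 and H2-T23 of the lists above. Of 8 A2 genes 4 were higher, Tm4sf1 (3.23-fold), Emp1 (2.41-fold), Tgm1 (at least 2.38-fold) and Cd14, and B3gnt5 was lower at 7.33 in WT EAE and 14.8 in WT naive, with a list median of 0.89. Under normexp Emp1 and Tgm1 were at 0.66 and 0.41.

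None of 11 astrocyte transport and coupling genes passed 2-fold, and their median was 0.02. The connexin 43 gene Gja1 stood at 144 on both arrays, and its 4 probes ranged from -0.57 to 0.08. The connexin 30 gene Gjb6 was at 831 in WT EAE and 951 in WT naive, a difference of -0.20. The glutamate transporter Slc1a2 was at 774 in WT EAE and 751 in WT naive, the water channel Aqp4 at 580 and 542, and the potassium channel Kcnj10 at 3607 and 3563. Of the 14 astrocyte identity genes only Gfap and the fatty acid carrier Fabp7 passed 2-fold, Fabp7 at 1464 in WT EAE and 668 in WT naive. Their median was 0.00, and S100b was the lowest at -0.52.

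Myelin genes were lower by less than 2-fold. None of 18 passed 2-fold, 16 lay below 0, and the median was -0.50, with a summed scaled intensity of 43410.2 in WT EAE and 55117 in WT naive. Mobp, a structural myelin protein, was at 1758 in WT EAE and 3030.2 in WT naive, a difference of -0.79. Mog, the surface antigen of myelin, was at 179 in WT EAE and 307 in WT naive (-0.78), and Opalin, a mature oligodendrocyte protein, at 72.5 and 125 (-0.78). Probes of Cnp did not agree, at -0.68 and 0.08. Oligodendrocyte precursor genes were level, with 0 of 13 past 2-fold and a median of -0.04. Cholesterol synthesis and export genes, which myelination uses heavily, had a median of -0.20 with 0 of 18 past 2-fold. On the Cx47-deficient arrays the myelin median was -0.71.

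Markers of other cells moved with the immune groups, and their part in these increases was not tested. Of 14 monocyte and macrophage genes 11 were higher, with a median of 2.54, and their summed scaled intensity was 4520.3 in WT EAE and 611 in WT naive. The median was 1.49 under normexp. Lysozyme Lyz2 was at 2476 in WT EAE and 177 in WT naive, 14.0-fold higher, and Fcgr4, an activating antibody receptor, was 15.4-fold higher. Plac8, Arg1, F10, Ccr2 and Cd163 were not well above background on the WT naive array, where Plac8 stood at 1.10 against 120 in WT EAE. Ly6c2 was at 1190.0 in WT EAE and 188 in WT naive, and its near-identical neighbour Ly6c1, an endothelial gene, at 1266 and 215, so that these cannot be told apart by name alone.

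Of 12 neutrophil genes 8 were higher, with a median of 1.28, and S100a9, a calcium-binding alarmin, was at 563 in WT EAE and 76.9 in WT naive. The neutrophil list summed to 4448 in WT EAE and 4808 in WT naive, of which Csf3r, a bright probe with a difference of -0.37, made up 3580.0 and 4635. On the WT naive array 6 of the neutrophil genes, Ly6g among them, were not well above background, and the list median was 0.46 under normexp. Of 13 T and NK cell genes 7 were higher, with a median of 1.09 and a sum of 690 in WT EAE and 523 in WT naive. That median was 0.43 under normexp, 0.50 over members well above background on both arrays, 0.85 when the probes of a gene were averaged and 0.83 when dim probes were kept. The T cell receptor chain gene Cd3d was at 30.8 in WT EAE and 2.32, not well above background, in WT naive, at least 10.3-fold higher, and Cd2 and Cd3g were also not well above background in WT naive. Cd4, which microglia and myeloid cells may also carry, was at 173 in WT EAE and 147 in WT naive. Of 7 B and plasma cell genes 1 was higher, Cd79b (2.20-fold, and 0.42 on the log2 scale under normexp), with a median of 0.41, and Cd79a was not kept.

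Genes of resident and of activated microglia differed. None of 12 homeostatic microglia genes passed 2-fold, with a median of -0.04: Tmem119 was at 296 in WT EAE and 182 in WT naive, the purinergic receptor P2ry12 at 135 and 149, and the fractalkine receptor Cx3cr1 at 988 and 691. The pan-myeloid calcium-binding gene Aif1 was at 709 in WT EAE and 237 in WT naive, 2.99-fold higher. Of 14 disease-associated microglia genes 6 were higher, with a median of 0.77, and the lectin Clec7a was at 226 in WT EAE and 10.5 in WT naive, 21.5-fold higher. Cst7 and Lgals3 of this list were 18.1-fold and 17.9-fold higher, Itgax and Gpnmb at least 14.8-fold and 9.58-fold, and Tyrobp 2.25-fold. Infiltrating macrophages also express several of these genes.

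Vessel genes were higher as well. Of 16 endothelial genes 11 were higher, with a median of 1.52 and a sum of 3603 in WT EAE and 1340.45 in WT naive, and the median was 0.78 under normexp. The clotting factor gene Vwf was at 134 in WT EAE and 14.6 in WT naive, 9.15-fold higher, and the tight junction gene Cldn5 at 355 and 64.1, 5.54-fold higher. Pecam1, Mfsd2a and Ocln differed by 0.33, 0.32 and -0.22. Of 13 leukocyte adhesion genes 4 were higher, with a median of 0.25: Icam1, at 70.5 in WT EAE and 12.2 in WT naive, and the integrins Itgb7, Itgb2 and Itgal. Vcam1 differed by 0.57. Of 15 pericyte, fibroblast and matrix genes 8 were higher, with a median of 1.01, led by the matrix proteins Tgfbi (5.53-fold) and Fn1 (4.77-fold). That median was 0.42 under normexp, 0.99 under quantile normalization and 0.98 with the authors' values. Cell division genes were higher in 7 of 13 cases, with a median of 1.13, such as Top2a, at 23.2 in WT EAE and 6.19 in WT naive, and Mki67, at 34.9 and 11.6. Their median was 0.39 under normexp, 0.89 over members well above background on both arrays and 0.65 with no filter, and under normexp Top2a was at 0.89 and Mki67 at 0.99.

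Several further lists had medians close to that of all genes. Glycolysis genes had a median of 0.02 with 0 of 16 past 2-fold, and metallothionein and oxidative stress genes a median of -0.02 with 0 of 13. Immediate early genes had a median of -0.04 with 1 of 13 higher, Atf3, a stress transcription factor, at 14.0 in WT EAE and 4.75 in WT naive, and at a difference of 0.58 under normexp. Of 13 prostaglandin and kynurenine enzymes Hpgds and Kmo were higher and Ido1 lower, with a median of 0.25, and under normexp they were at 0.10, 0.32 and -0.97. Ependymal genes had 0 of 10 past 2-fold and a median of 0.26, pan-neuronal genes 0 of 15 and 0.04, and erythroid genes 0 of 4 and 0.19.

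Choroid plexus genes were uneven, with 5 of 10 higher by 2-fold, 4 below 0 and a median of 0.74. The thyroxine carrier Ttr was at 3024 in WT EAE and 943 in WT naive and the water channel Aqp1 at 106 and 8.51. Otx2, a transcription factor of this tissue, differed by -0.98, Prlr by -0.65, and Clic6 and Enpp2 by -0.04 each.

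**Figure D3:**
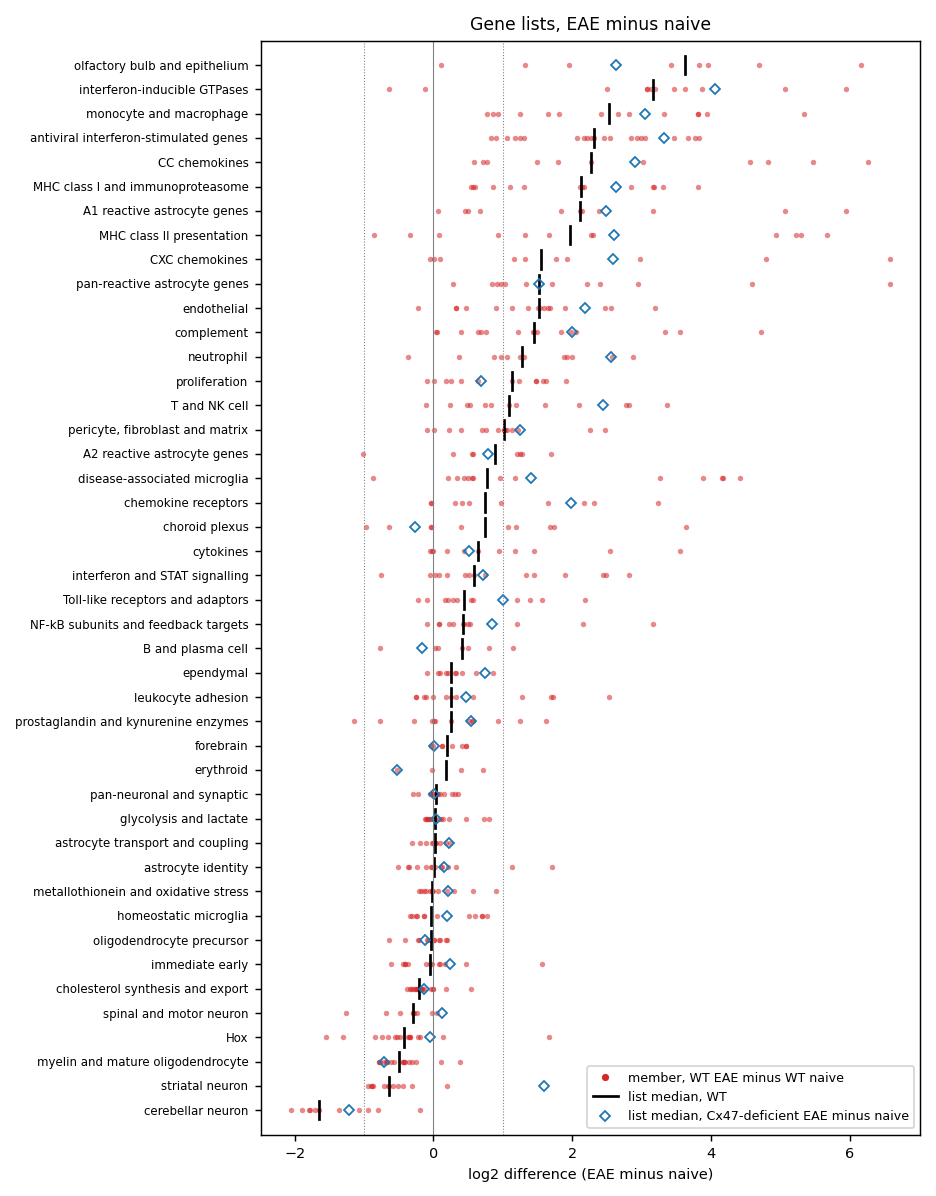
Differences (log2, EAE minus naive) of the members of 44 gene lists, with red points for single genes in WT, black bars for the WT list median and open blue diamonds for the Cx47-deficient list median, with dotted lines at 2-fold. Interferon, chemokine and myeloid lists lie to the right in both pairs, and the cerebellar list lies to the left in both, while the striatal list has medians of opposite sign, -0.65 in WT and 1.59 in Cx47-deficient mice.

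Genes of single brain regions also differed between the arrays, whose tissue label was spinal cord. Cerebellar neuron genes were the list with the lowest median, -1.65, and 8 of 11 were lower by 2-fold or more, against 1.94% of all genes. Gabra6, a GABA receptor subunit of cerebellar granule cells (chr11:42120087-42120146), was at 83.8 in WT EAE and 348 in WT naive, 4.15-fold lower. The Purkinje cell genes Pcp2 and Ppp1r17 were at 1044 and 37.2 in WT EAE and at 3612 and 169 in WT naive. En2, a transcription factor of the hindbrain, was at 83.4 in WT EAE and 287 in WT naive. For all 11 cerebellar genes the WT EAE array was the lowest of the 6 arrays of its slide. That held for 18.1% of all kept genes and for 84.5% of the 439 genes lower by 2-fold or more. Gabra6 varied more widely over those arrays than between the WT pair, with 715 in Cx47-deficient EAE, 1571 in Cx47-deficient naive, 1173 in WT EAE with iguratimod and 315 in Cx47-deficient EAE with iguratimod.

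Olfactory genes moved the other way. This list and the forebrain list were drawn up after values were seen and describe only. Of 8 olfactory bulb and epithelium genes 7 were higher, with a median of 3.62 and a sum of 1816 in WT EAE and 448 in WT naive. Omp, the marker of mature olfactory sensory neurons, was at 247 in WT EAE and 9.59 in WT naive, 25.8-fold higher, and Doc2g and Cdhr1, genes of olfactory bulb projection neurons, at 260 and 237 in WT EAE and at 16.8 and 22.2 in WT naive. Tbx21, which those projection neurons share with type 1 helper T cells, was at least 14.2-fold higher. Striatal genes lay below 0 in 11 of 12 cases with a median of -0.65 and none past 2-fold, such as the adenosine receptor Adora2a, at 74.7 in WT EAE and 138 in WT naive. The forebrain transcription factor Tbr1 was well above background on both arrays, at 969 in WT EAE and 891 in WT naive, and the forebrain list had a median of 0.19 with 0 of 8 past 2-fold.

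Genes that mark levels of the cord mostly lay below 0. Of 16 Hox genes 2 lay above 0, 1 was higher by 2-fold and 2 were lower, with a median of -0.43. Hoxc8 was at 31.8 in WT EAE and 9.97 in WT naive, while Hoxd10 was at 1.998, not well above background, and 7.62, and Hoxc10 at 5.12 and 12.7. Under normexp these were at 0.96, -0.64 and -0.66. The rule for the largest decreases named Hoxb13, at 3.56 in WT EAE and 17.4 in WT naive, and Hoxa10, at 12.8 and 51.2. Of 9 spinal and motor neuron genes Mnx1, a motor neuron transcription factor, was lower at 1.53, not well above background, in WT EAE and 6.24 in WT naive, at least 2.39-fold (-0.47 under normexp), 1 lay above 0, and the median was -0.29. How far these regional genes share a source with the immune differences was not tested.

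**Figure D4:**
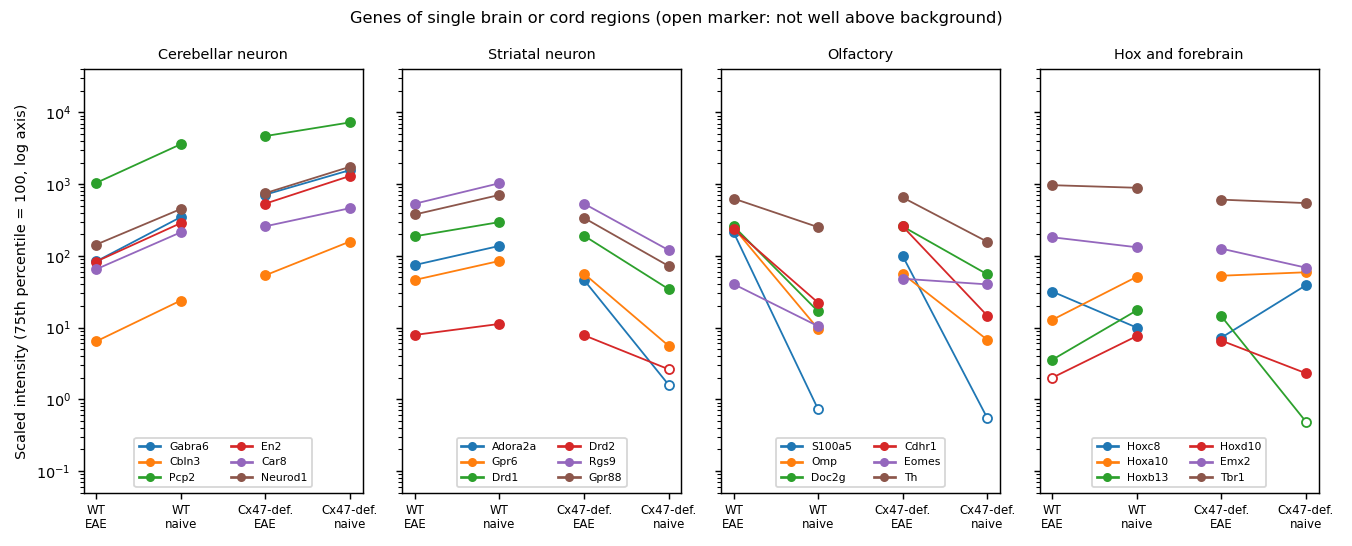
Scaled intensity (log axis) of 24 genes of single regions on the WT EAE, WT naive, Cx47-deficient EAE and Cx47-deficient naive arrays, drawn as in the plot of immune genes, with open markers for probes not well above background. Cerebellar genes are lower and the olfactory genes shown higher on each EAE array than on its naive partner, whereas the striatal genes shown are slightly lower in WT EAE and higher in Cx47-deficient EAE.

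The 15 largest decreases that the naming rule gave were of several kinds, with cerebellar Gabra6 and Ppp1r17 and the Hox genes Hoxb13 and Hoxa10 among them. The rule asks for a RefSeq name. Over all 439 lower genes the lowest difference was -2.87, and over those with a RefSeq name it was -2.63, that of Cpsf4l. Behind Cpsf4l, at 3.91 in WT EAE and 24.3 in WT naive (6.21-fold lower), came Gm20747 (at least 5.93-fold), 4933438K21Rik (5.76-fold), Sycp1, a protein of meiotic chromosomes (4.999-fold), Ssty1, a multicopy Y gene (at least 4.92-fold), Hoxb13 (4.89-fold) and Ppp1r17 (4.53-fold). The rest were 4930557B15Rik, Gabra6, Hoxa10, 5430431A17Rik, Il22, Bcl2l15, Gm10375 and Tssk5, each between 3.83-fold and 4.24-fold lower. Il22, a cytokine gene, was at 32.8 in WT EAE and 128 in WT naive. It was at 169 in Cx47-deficient EAE and 281 in Cx47-deficient naive. With iguratimod it was at 354 in WT EAE and 108 in Cx47-deficient EAE. The Purkinje cell gene Ppp1r17 was at 213, 383, 419 and 123 on these 4 arrays in the same order. Why the 2 genes had like profiles was not tested. The decreases leaned to unnamed transcripts: 46.5% of the 439 lower genes had only the name of the array design, against 7.86% of the higher genes and 23.8% of all kept genes. Where a lower gene had several kept probes, all were lower in 43 of 61 genes, and all were higher in 165 of 178 of the higher genes.

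The Cx47-deficient pair, on the same slide, showed which differences recurred on other arrays. Of 22336 genes compared, 1199 were higher there by 2-fold (5.37%) and 354 lower (1.58%). Of the WT increases, 659 of 747 compared were also higher in the Cx47-deficient pair, 88.2% of the WT list and 54.96% of the Cx47-deficient list. Of the WT decreases, 57 of 425 were also lower, 13.4% of the WT list and 16.1% of the Cx47-deficient list. Over the genes higher in WT the median difference was 1.61 in WT and 2.14 in the Cx47-deficient pair, and over the lower genes it was -1.30 in WT and -0.43 in the Cx47-deficient pair. Whether the effect of disease differed between genotypes was not tested.

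The list medians had the same sign in both pairs for most immune lists. The CC chemokine median was 2.27 in WT and 2.91 in the Cx47-deficient pair, that of the interferon-inducible GTPases 3.17 and 4.05, MHC class II 1.97 and 2.61, T and NK cells 1.09 and 2.44, and endothelial genes 1.52 and 2.18. Pan-reactive astrocyte genes were at 1.52 in WT and 1.53 in the Cx47-deficient pair. The cell division median was 1.13 in WT and 0.68 in the Cx47-deficient pair, the cerebellar median -1.65 and -1.22, and the choroid plexus median 0.74 and -0.27. The B cell median, 0.41 in WT and -0.16 in the Cx47-deficient pair, also changed sign.

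Among single genes the size of the response varied between the pairs. Lcn2 differed by 4.59 in WT and by 6.65 in the Cx47-deficient pair, where it was at 780 in Cx47-deficient EAE and 7.78 in Cx47-deficient naive. The macrophage lectin Chil3 was at 36.5 in WT EAE and 5.17 in WT naive, and at 506 and 2.97 in Cx47-deficient EAE and Cx47-deficient naive. Vim differed by 1.03 in WT and 0.07 in the Cx47-deficient pair, and its naive level was 220 in WT and 690 in Cx47-deficient mice. Gfap differed by 1.71 and 1.46. Ttr differed by 1.68 in WT and -0.01 in the Cx47-deficient pair.

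**Figure D5:**
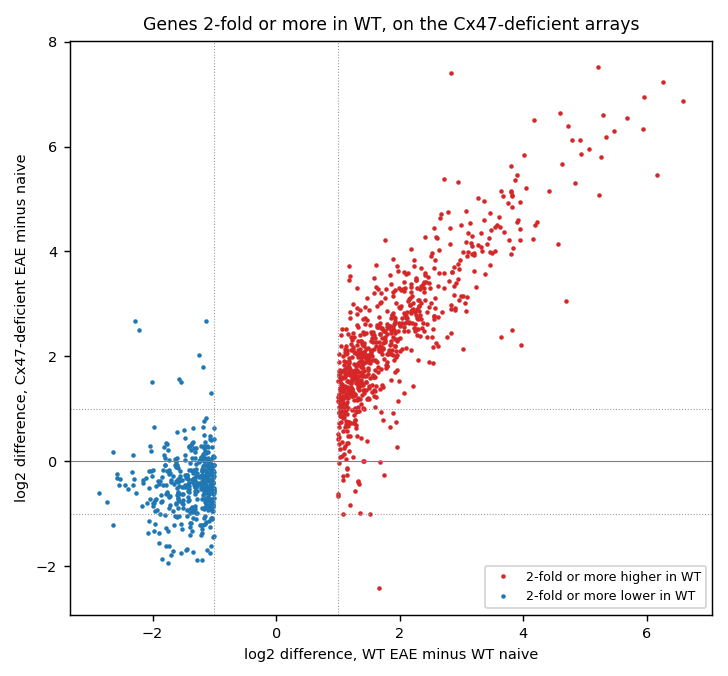
Difference (log2, EAE minus naive) in the Cx47-deficient pair (vertical) against the WT pair (horizontal) for genes 2-fold or more higher (red) or lower (blue) in WT, with dotted lines at 2-fold. The red genes lie mostly above the upper dotted line, 659 of 747, and the blue genes mostly between the dotted lines, with 57 of 425 below the lower one.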

How the data were processed

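Of 8 single-colour arrays, the WT EAE and WT naive arrays were compared, with the Cx47-deficient EAE and naive arrays beside them. The members and gene lists were chosen with earlier results of these data known. The deposited files are scanner output with an intensity per spot, from which Agilent Feature Extraction had subtracted background. Its version was 10.7.1.1 per the file headers and 9.5.1.1 per the submitters' processing notes. Quality flags and other per-spot columns were used as deposited. Probe positions are on mm9, per the file headers. The authors' deposited table of processed intensity values, apparently quantile normalized with a median of 50.2 in every column, served as an alternative.

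The log2 of the processed signal minus the array's percentile 75 over non-control spots was used, outlier spots were left out and spots of a probe averaged. Of 56600 probes, 34199 that were well above background in WT EAE, WT naive or both were kept. A gene was its kept probe with the highest mean over the 8 arrays. A RefSeq table named 33889 probes by accession, 9462 by symbol and 489 by synonym, and 12765 kept the file's name. Promoters are from RefSeq (GRCm38.p6).

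With 1 array per group nothing was tested, and the number of arrays limits the precision. Genes were named by rule: the 15 largest differences each way that were also 2-fold under normexp and quantile normalization and had a RefSeq name, up to 4 members with the largest difference per list, and Gfap, Gja1, Gjb6, Il6 and Aif1. Some genes that this rule names, the targeted gene among them, are not reported here. Other genes of the lists were chosen after their values were seen. Normexp (offset 50), quantile normalization, median centring, the authors' values, other filters, no floor, probe means, a 3-fold rule and only RefSeq-named genes were tried, the last chosen after seeing the data. The steps were tested on simulated data with changes set only in bright probes and each probe treated as a gene. That test says nothing of how dim values or the choice among a gene's probes behave. Python 3.11.15 with numpy 2.4.6 and pandas 2.3.3, and limma 3.58.1 in R 4.3.3, were used.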

Additional observations from a re-analysis of the deposited data

Results flagged for a closer look

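For 4 named genes the WT pair and the Cx47-deficient pair moved in opposite directions by 2-fold or more, with 1 array behind each value, and the difference between the pairs was not tested. Hoxb13 differed by -2.29 in WT and 2.66 in the Cx47-deficient pair, being at 3.56 in WT EAE, 17.4 in WT naive, 14.4 in Cx47-deficient EAE and 0.49, not well above background, in Cx47-deficient naive. Hoxd10, not well above background in WT EAE, differed by -1.55 in WT and 1.51 in the Cx47-deficient pair. Hoxc8 went the other way, with 1.67 in WT and -2.43 in the Cx47-deficient pair, at 7.24 in Cx47-deficient EAE and 39.0 in Cx47-deficient naive. Ido1, which starts tryptophan breakdown, differed by -1.14 in WT and 2.67 in the Cx47-deficient pair, at 32.6 in WT EAE, 71.8 in WT naive, 27.7 in Cx47-deficient EAE and 4.35 in Cx47-deficient naive. Under normexp the WT differences of Hoxc8, Hoxd10 and Ido1 were 0.96, -0.64 and -0.97.

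In all, 12 genes were 2-fold or more in opposite directions, 3 higher in WT and 9 lower in WT. The 3 were out of 747 WT increases compared, and 1.58% of all compared genes were lower in the Cx47-deficient pair. The 9 were out of 425 WT decreases compared, and 5.37% of all compared genes were higher there. Such opposite moves were thus no more common than those shares. Chosen after their values were seen, Hoxa11 (-2.01 in WT and 1.51 in the Cx47-deficient pair) and Hoxc11 (-2.21 and 2.51) are further posterior Hox genes among the 9, both not well above background in WT EAE.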

How the results depend on the processing

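No paired analysis was possible because each group has 1 array and the labels give no replicate numbers. The 763 higher genes became 356 under normexp and 385 at 3-fold. The 439 lower genes became 89 under normexp, 232 with both arrays well above background, 746 with no floor, 116 at 3-fold and 235 among RefSeq-named genes. The 63.5% of 2-fold genes that were higher became 80.0% under normexp, 68.8% under quantile normalization, 69.1% under median centring, 69.4% with the authors' values, 70.8% with both arrays well above background, 56.9% with no floor and 76.8% at 3-fold. The share of WT increases also higher in the Cx47-deficient pair (88.2%) became 95.5% under normexp, 81.9% with no floor and 94.5% at 3-fold. The share of WT decreases also lower there (13.4%) became 18.4% under normexp, 19.8% with both arrays well above background, 5.36% at 3-fold and 18.6% among RefSeq-named genes. The cause of these shifts was not tested. More genes were higher than lower under every alternative. The counts and the shares also found in the Cx47-deficient pair have no sign that could turn. Of 352 list medians under the alternatives, 11 turned sign, such as homeostatic microglia (-0.04, and 0.17 with the mean of probes) and cytokines (0.64, and -0.02 with no filter), and of 1500 values of named genes 8 did, those of Hba-a1 and Gja1. Normexp put 34 of 128 named genes and 7 of 17 list medians under 2-fold. These medians were of CXC chemokines, complement, neutrophils, T and NK cells, endothelial, pericyte and matrix, and cell division genes. Its offset damps dim probes by design, so this count does not measure how certain dim values are. Values of dim genes depend on how background is handled.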

Other observations

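Transcripts placed on the unplaced Y sequence of mm9 made up 38 of the 439 lower genes, out of 52 kept. That is 73.1% of the 52, against 1.94% of all kept genes. Their median scaled intensity over the 52 was 2.60 in WT EAE and 10.3 in WT naive, with a median difference of -1.50, and it was 20.1 in Cx47-deficient EAE and 21.1 in Cx47-deficient naive. With iguratimod it was 13.2 in WT EAE and 4.15 in Cx47-deficient EAE, on the same slide. These transcripts are of multicopy families such as Ssty1, so a probe may read several copies. The 10 kept genes placed on Y itself had a median difference of 0.05. Single-copy Eif2s3y was at 81.8 in WT EAE and 78.5 in WT naive, Uty at 15.5 and 14.6, and Ddx3y at 14.99 and 20.2, all well above background. The Y multicopy genes were listed after their values were seen.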
